A study of Mus musculus with 7 samples.

Results

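The cytosolic ribosomal protein genes were taken as the protein-coding genes of the mm10 RefSeq table whose symbols follow the scheme Rpl, Rps or Rplp, a number and at most one letter a or x. This gave 75 of the 21887 protein-coding genes on the autosomes, X and Y. The scheme itself uses no measured value, but it was chosen with earlier results of these data known. The members comprise 43 genes of the large subunit (Rpl), 29 of the small subunit (Rps) and the 3 stalk genes Rplp0, Rplp1 and Rplp2. They lie on 19 chromosomes, and 4 of them (Rpl10, Rpl36a, Rpl39 and Rps4x) are X-linked. Their median length is 3164 bp, and 28 of them hold 55 snoRNA genes inside their bounds. The scheme leaves out genes of ribosomal proteins under other symbols, such as Rpsa, Fau, Rack1 and Rps3a1.

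The cytosolic ribosome builds the proteins of the cell, and each of its proteins must be supplied in step with the others and with ribosomal RNA. The genes are scattered through the genome, are transcribed at high rates in growing cells, and are known for compact promoters in open CpG-rich DNA and for a start site within a run of pyrimidines. That run places a terminal oligopyrimidine motif at the 5′ end of the mRNA, through which growth signals control its translation. Loss of 1 copy of several of these genes causes anaemia in humans, so they are also known in blood cell production.

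Histone marks were profiled in common monocyte progenitors (cMoPs), committed precursors of monocytes, sorted from mouse bone marrow. The assay was CUTAC, in which an antibody guides a transposase that cuts accessible DNA beside the mark. H3K4me2, a mark of promoters and enhancers, was measured in 2 libraries labelled DE and 2 labelled WT, both of batch 2. H3K4me3, which marks promoters in use, came from 1 WT library of batch 1. DE and WT are variants of an enhancer 165 kb from Zeb2, the gene of a zinc finger repressor, and the labels do not spell out DE. The sources used here give no age or sex of the mice and no other allele or treatment. They do not say whether replicates are different mice, so p-values measure only the spread between these libraries. Mark and batch cannot be told apart. An IgG library of WT cMoPs and an H3K4me3 library of cells labelled MDP are left out.

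Among the H3K4me2 lists, those of DE had 21968 and 17079 peaks and those of WT 32354 and 28152, and the H3K4me3 list had 6425. The lists carry no read totals, so the depth is unknown and a missing peak is no proof of a missing mark. Peaks had a median width of 249 and 246 bp in DE, 152 and 212 bp in WT and 167 bp for H3K4me3. Of 16 genes of cMoPs and monocytes, 14 and 12 had a gene-end peak in DE and 14 and 15 in WT, while none of the lists had one at Ccr2. Csf1r, Ly6c2, Irf8, Klf4, Mpo, Elane, Prtn3 and Ctsg had one in all 5 lists. Of 8 B cell genes the counts were 2 and 1 in DE and 1 in each WT list, of 8 T cell genes 2 and 0 in DE and 1 and 2 in WT, of 8 erythroid and megakaryocyte genes 1 and 1 in DE and 0 and 1 in WT, and of 8 neutrophil genes 1 and 2 in DE and 1 and 0 in WT. H3K4me3 was called at 10 of the cMoP and monocyte genes and at none of the other 4 groups.

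Promoters of 8 members are shown because the results turn on them. Rps18, Rpl9, Rpl7a, Rpl27 and Rpl35 had the strongest H3K4me3 peaks among the members. Rpl5, Rpl26 and Rps24 had an H3K4me2 peak in both WT lists and in neither DE list. Each stretch runs from 80 bases before the RefSeq start to 20 bases from it (GRCm38.p6, the mm10 build), 5′ to 3′ on the strand of the gene. Capitals mark the unbroken run of C and T that passes through the start base, and a stretch with no capitals starts on a purine. The stretches lie at chr17:33955646-33955745 for Rps18 (minus strand), chr5:65391412-65391511 for Rpl9 (minus), chr2:26910727-26910826 for Rpl7a (plus), chr11:101442165-101442264 for Rpl27 (plus) and chr2:39005112-39005211 for Rpl35 (minus). Those of the other group lie on the plus strand, at chr5:107900448-107900547 for Rpl5, chr11:68901486-68901585 for Rpl26 and chr14:24490598-24490697 for Rps24.
Rps18: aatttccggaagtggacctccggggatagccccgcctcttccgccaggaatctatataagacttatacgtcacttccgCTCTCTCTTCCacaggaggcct
Rpl9: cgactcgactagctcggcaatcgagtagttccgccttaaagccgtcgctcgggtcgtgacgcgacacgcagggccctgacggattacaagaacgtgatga
Rpl7a: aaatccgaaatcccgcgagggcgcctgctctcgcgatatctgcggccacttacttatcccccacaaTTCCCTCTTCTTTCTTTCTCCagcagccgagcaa
Rpl27: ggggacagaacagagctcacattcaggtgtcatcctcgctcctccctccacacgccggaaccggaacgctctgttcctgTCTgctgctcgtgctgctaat
Rpl35: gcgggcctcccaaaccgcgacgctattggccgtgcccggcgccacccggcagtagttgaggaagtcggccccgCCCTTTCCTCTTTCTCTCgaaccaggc
Rpl5: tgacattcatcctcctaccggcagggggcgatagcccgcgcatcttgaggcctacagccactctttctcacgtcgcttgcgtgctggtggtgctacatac
Rpl26: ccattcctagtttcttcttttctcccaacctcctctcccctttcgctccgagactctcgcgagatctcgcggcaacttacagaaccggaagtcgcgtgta
Rps24: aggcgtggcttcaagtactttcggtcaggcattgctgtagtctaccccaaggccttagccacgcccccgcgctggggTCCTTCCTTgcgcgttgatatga
The run is 21 bases long at Rpl7a, 18 at Rpl35, 11 at Rps18, 9 at Rps24 and 3 at Rpl27. Rpl9, Rpl5 and Rpl26 have a run of 0 at this start.

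H3K4me3 lay at nearly every ribosomal protein gene. A gene was called in a list when a peak of the authors' list came within 1 kb of either of its ends. For H3K4me3, 69 of the 75 members (92%) were called, against 20.8% of all protein-coding genes. The 6 without a call were Rpl6, Rpl17, Rpl19, Rpl22, Rpl27a and Rps2. H3K4me2 was called at 67 and 61 members in DE (background 44.8% and 40.2%) and at 66 and 71 in WT (background 48.1% and 49.1%). All 4 H3K4me2 lists had a call at 58 members (77.3%), against 37.6% of all genes, and all 5 lists at 56 members, against 19.1%. Of the stalk genes, which form the arm that recruits elongation factors, and of the X-linked members, every one was called in all 5 lists. By subunit, H3K4me3 was called at 38 of 43 Rpl genes and 28 of 29 Rps genes.

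The 2 gene sets of like kind, chosen by what they encode, stood further from the members in H3K4me3 than in H3K4me2. Of the 77 mitochondrial ribosomal protein genes, 65 and 59 had an H3K4me2 call in DE and 65 and 70 in WT. For H3K4me3 the count was 44 (57.1%). Of the 44 proteasome genes, 31 in each DE list and 36 and 38 in WT had an H3K4me2 call, and 31 (70.5%) an H3K4me3 call. The share with H3K4me2 in all 4 lists was 75.3% of the mitochondrial and 63.6% of the proteasome genes, so the mitochondrial set came near the members on this count. No test was run on these shares, since genes of 1 library are not replicates.

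**Figure D1:**
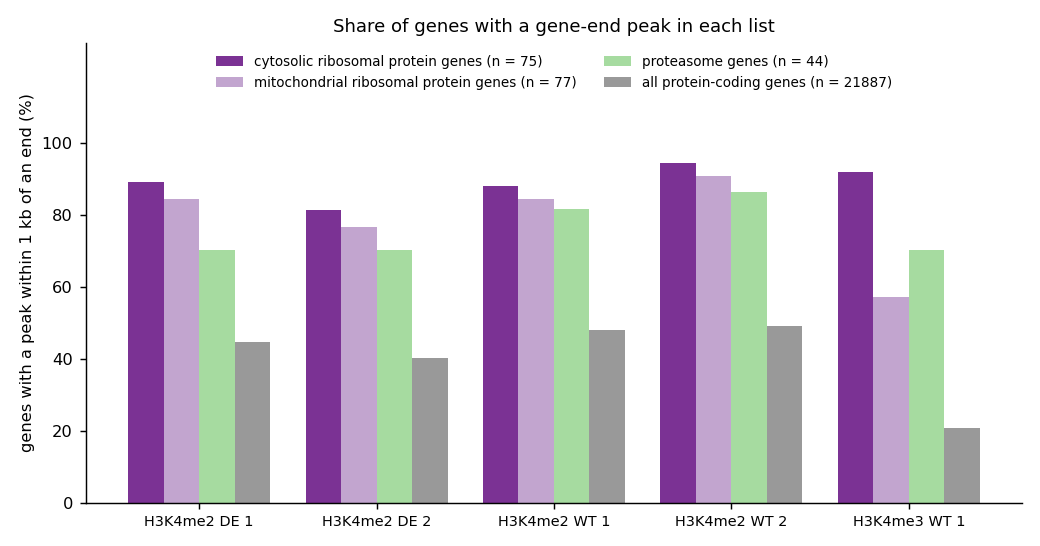
Share of genes with a peak within 1 kb of a gene end (vertical axis, percent) in each of the 5 peak lists (horizontal axis). Bars stand for the 75 cytosolic and 77 mitochondrial ribosomal protein genes, 44 proteasome genes and all 21887 protein-coding genes; the members reach 92% in the H3K4me3 list, where all genes are at 20.8%.

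Among the other genes of the translation machinery, the 33 translation factors came nearest to the members in H3K4me3, with 30 calls (90.9%), and had 31 and 24 H3K4me2 calls in DE and 31 and 33 in WT. All 5 lists held 24 of them (72.7%). Eef1a1, Eef2 and Eif4a1, which drive elongation and mRNA unwinding, were called in all 5 lists. The 40 ribosome assembly genes had 38 and 32 H3K4me2 calls in DE and 39 and 39 in WT, and 28 H3K4me3 calls. Ncl, Fbl and Nop56, whose nucleolar proteins process ribosomal RNA, were called in all 5 lists, while Npm1 lacked a call in DE replicate 2 and for H3K4me3. Of 12 genes of ribosomal proteins or their paralogs outside the symbol scheme, 9 and 7 were called in DE, 9 and 9 in WT and 9 for H3K4me3. Rpsa, Fau and Rack1 were among those called in all 5 lists. The paralogs Rps27l, Rpl10l and Rpl39l had no call in any list.

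H3K4me3 peaks at the members were also strong within their list. Strength is the −log10 p that the authors' caller gave to a gene's strongest gene-end peak, and it is given here as a percentile from 0 (weakest) to 100 (strongest). For H3K4me3 the percentile is among the 4548 genes called. The median member stood at the percentile 85.9, mitochondrial ribosomal protein genes at 56.6 and proteasome genes at 67.7. Of the 69 members, 39 (56.5%) were at the percentile 75 or above and 4 at 25 or below. The members' median H3K4me3 width was 213 bp, against 176 bp over all genes called. Rpl genes had a median percentile of 88.7 (n = 38), Rps genes of 84.0 (n = 28) and the stalk genes of 58.8 (n = 3).

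The 5 strongest H3K4me3 peaks were at Rps18, Rpl9, Rpl7a, Rpl27 and Rpl35, whose promoters are printed above. Rps18 (gene ID 20084, chromosome 17, 33951998 to 33955665), a protein of the head of the small subunit, had a −log10 p of 54.5 and the percentile 100. Rpl9 and Rpl7a had a −log10 p of 49.9 and 47.6. Rpl27 and Rpl35 had 43.4 and 39.5, and Rpl35 is a protein at the exit of the peptide tunnel. The summits of Rps18, Rpl9 and Rpl35 lay 86, 19 and 52 bp upstream of the gene bound at the start, and those of Rpl7a and Rpl27 lay 37 and 125 bp downstream. The promoter of Rpl7a is printed from its listed start, 122 bp inside the bounds, and its summit lay upstream of that start. At the other extreme, H3K4me3 had a −log10 p of 4.75 at Rpl26, 4.94 at Rpl28, 7.02 at Rps21, 7.10 at Rpl30 and 8.41 at Rps29. The Rpl26 peak was 98 bp wide, and the narrowest peak of the whole H3K4me3 list was 96 bp wide.

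H3K4me2 peaks of the members ranked above the middle of their lists, by less than those of H3K4me3. Here the percentile is among the 8239 genes called in all 4 H3K4me2 lists. The median member was at 59.7 and 63.1 in DE and at 69.5 and 65.8 in WT. The medians of mitochondrial ribosomal protein genes were 49.5 and 49.0 in DE and 56.0 and 45.7 in WT, and those of proteasome genes 59.7 and 59.3 in DE and 57.1 and 57.7 in WT. The members' interquartile range ran from 43.6 to 80.6 in DE replicate 1 and from 40.7 to 86.1 in WT replicate 2, so single members spread over most of the scale. Members with a snoRNA inside had a median percentile over the 4 lists of 54.3 (n = 22), and those without one 67.7 (n = 36). For H3K4me3 these medians were 83.3 (n = 24) and 85.9 (n = 45).

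**Figure D2:**
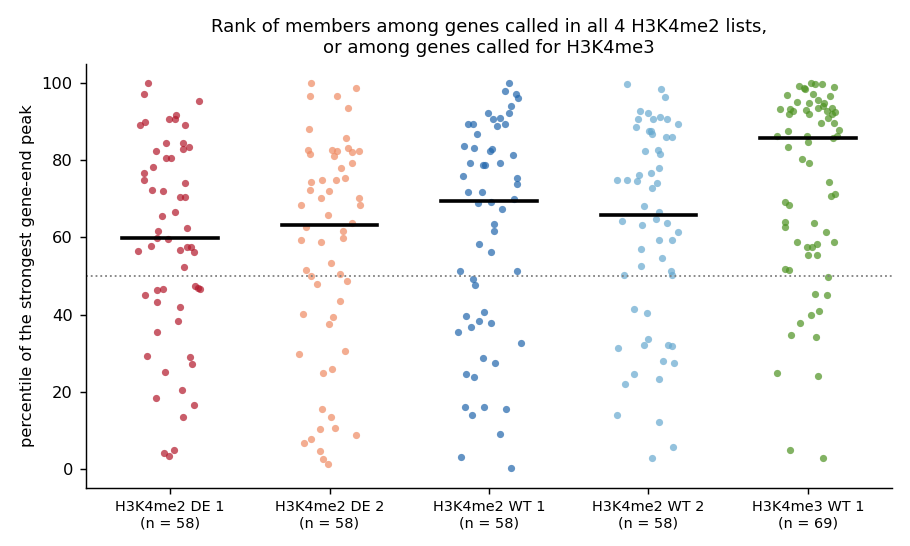
Percentile of the strongest gene-end peak of each member (vertical axis, 0 weakest to 100 strongest) in each library (horizontal axis), among genes called in all 4 H3K4me2 lists or among genes called for H3K4me3. Points are genes, black bars medians and the dotted line the middle of the scale; the H3K4me3 median is 85.9 and the H3K4me2 medians lie between 59.7 and 69.5.

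The highest H3K4me2 percentiles were at Rps29, Rps12, Rpl21, Rps18 and Rpl18. Rps29, a small zinc-binding protein of the small subunit, had a −log10 p of 96.7 and 79.0 in DE and 194 and 134 in WT, against 8.41 for H3K4me3. Its H3K4me2 summits lay 36 to 39 bp from an end of Rn7s1, an RNA gene of the signal recognition particle, and 145 to 148 bp from the end of Rps29, while the H3K4me3 summit lay 30 bp from the end of Rps29 and 139 bp from Rn7s1. The strongest H3K4me2 peak counted for Rps29 was thus nearer to the neighbour in all 4 lists. Rps12, of the small subunit, was at the percentile 97.1 and 96.6 in DE and 82.9 and 98.4 in WT. Rpl21 was at 90.7 and 98.6 in DE and 97.9 and 87.7 in WT, and Rpl18 at 95.3 and 93.7 in DE and 88.9 and 81.7 in WT. The strongest summits of Rpl18 lay 168 and 147 bp upstream of the gene bound in DE and 204 and 129 bp in WT. Its listed start is 2604 bp inside the bounds. For Rps12 and Rpl21 the nearest end of another protein-coding gene lay at least 9490 bp from the summit in each list.

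Rps18 shows how near neighbours enter these values. Its strongest H3K4me2 peak lay at the far end of the gene, with the summit 18 bp from B3galt4 in DE replicate 1 and 19 and 5 bp from it in WT replicates 1 and 2. In DE replicate 2 the strongest summit lay at the start, 105 bp upstream and 9 bp from Vps52, and the H3K4me3 summit 28 bp from Vps52. An end of another protein-coding gene lay within 1 kb of the strongest summit at 17 and 17 called members in DE, 16 and 16 in WT and 16 for H3K4me3. Rpl41, which encodes the smallest ribosomal protein, had the summit of its strongest peak beyond the end of the gene away from the start in all 5 lists, with widths of 785 and 734 bp in DE and 741 and 691 bp in WT. The coding gene nearest to the strongest summit was the member itself at 53 of 67 and 49 of 61 called members in DE, 52 of 66 and 60 of 71 in WT and 60 of 69 for H3K4me3.

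The lowest H3K4me2 percentiles among members called in all 4 lists were at Rpl27a, Rpl37a, Rps21, Rpl24 and Rpl23a. Rpl27a was at 3.99 and 6.76 in DE and 23.9 and 5.68 in WT, and its start lay 440470 bp from the nearest H3K4me3 peak. Rpl37a was at 18.4 and 10.3 in DE and 9.04 and 2.78 in WT, and at 57.5 for H3K4me3. Rps21 was at 4.78 and 1.25 in DE and 28.8 and 24.6 in WT, so its DE libraries both lay below its WT libraries. Rpl23a, a protein of the peptide exit tunnel to which the signal recognition particle binds, was at 35.4 and 24.9 in DE and 0.109 and 32.0 in WT. Rpl24, which reaches from the large to the small subunit as an intersubunit bridge, was at 3.32 and 15.6 in DE and 35.4 and 27.9 in WT, against 95.6 for H3K4me3.

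**Figure D3:**
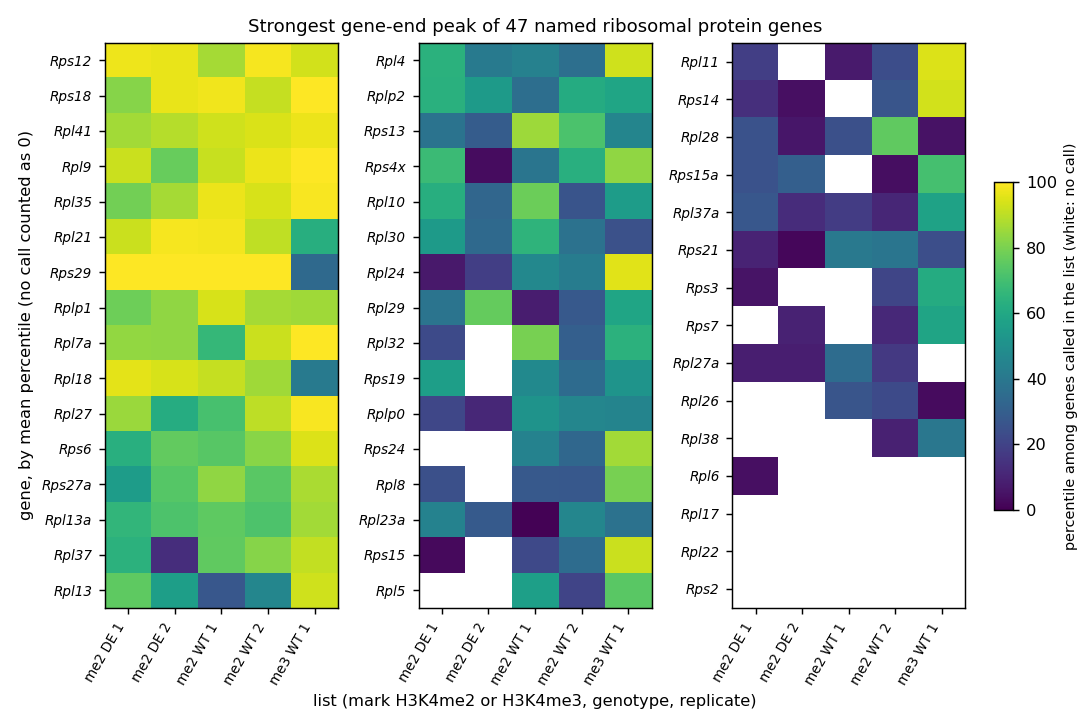
Percentile of the strongest gene-end peak (colour, among all genes called in that list) for the 47 members named by rule (rows, in 3 blocks from high to low mean) in the 5 lists (columns of each block). White stands for no call; the calls missing from H3K4me2 gather in the blocks in the middle and on the right, where Rpl11, Rpl24, Rps14 and Rps15 still carry H3K4me3 above the percentile 92.

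The set of genes with H3K4me3 but patchy H3K4me2 held more of the members than of all genes. An H3K4me3 call together with a missing call in at least 1 H3K4me2 list was found at 13 members (17.3%), against 1.66% of all genes. As a share of the H3K4me3-called genes this is 18.8% of 69 members and 8.0% of 4548 genes. It was 2.27% of 44 mitochondrial ribosomal protein genes (1 gene) and 12.9% of 31 proteasome genes (4 genes). The translation factors had 6 such genes of 30 called (20%), and the ribosome assembly genes 0 of 28. Of the 17 members missing from at least 1 H3K4me2 list, 8 were missing from DE replicate 1 and 14 from DE replicate 2, the shortest list, and 9 from WT replicate 1 and 4 from WT replicate 2. Of the 13 among them with an H3K4me3 call, 5 were missing from DE replicate 1 and 10 from DE replicate 2. In WT, the genotype of the H3K4me3 library, 5 were missing from replicate 1 and 0 from replicate 2.

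A stronger form of this contrast was picked out after the values were seen, and no test of it was run. Rpl8, Rpl11, Rpl24, Rps14, Rps15 and Rps24 had H3K4me3 at the percentile 75 or above while every H3K4me2 list had them below the percentile 50 among its own called genes or without a call. They are 6 of 69 members (8.70%), against 67 of 4548 genes (1.47%). Rpl11, which with Rpl5 and 5S RNA restrains Mdm2 and so stabilises p53, had an H3K4me2 −log10 p of 7.0 in DE replicate 1, none in DE replicate 2, and 5.57 and 11.6 in WT, against 27.9 for H3K4me3 (percentile 94.7). Rps14, whose human ortholog is lost in the 5q deletion syndrome, had 6.17 and 4.15 in DE, none in WT replicate 1 and 12.6 in WT replicate 2, against 26.5 for H3K4me3 (93.3). Rps15, a protein of the head of the small subunit, had 4.13 in DE replicate 1, none in DE replicate 2, and 8.35 and 15.5 in WT, against 24.5 for H3K4me3 (92.1). The peak of Rps15 in DE replicate 1 began 1020 bp from the start, while both WT peaks covered the start. The reverse form, H3K4me3 called below the percentile 50 with all 4 H3K4me2 lists at 75 or above, held Rps29 and Rpl18, 2 of 69 members (2.90%), against 6.51% of all H3K4me3-called genes. For Rpl18 these are values of peaks at the outer bound. Peaks of all 5 lists also covered its listed start, 2604 bp inside the bounds, and did not enter these values.

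Across the 56 members called in all 5 lists, the mean WT percentile of H3K4me2 and that of H3K4me3 had a Spearman rho of 0.37. Over all 4184 genes called in all 5 lists rho was 0.30. These are descriptions across genes, which share libraries and are not independent replicates. The mean percentiles of DE and WT had a rho of 0.79 across the same 56 members and 0.80 across all 4184 genes.

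At the members with a missing H3K4me2 call, the other H3K4me2 lists gave a −log10 p of at most 24.7, at Rpl32 in WT replicate 1, while the medians over called members were 16.3 and 13.4 in DE and 21.2 and 30.3 in WT. Rps19, the gene most often mutated in human Diamond-Blackfan anaemia, had an H3K4me2 −log10 p of 14.3 in DE replicate 1 and none in DE replicate 2, and 13.6 and 15.3 in WT. Rpl32 had 7.66 in DE replicate 1, none in DE replicate 2, and 24.7 and 13.7 in WT. Its strongest peaks were 112 to 119 bp wide in the 4 lists that held one. Rpl8, near the catalytic centre of the large subunit, had 8.0 in DE replicate 1, none in DE replicate 2, and 9.61 and 12.8 in WT. For these 3 genes DE replicate 2 was the list without a call.

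Other members lacked a call in WT replicate 1. Rps3, at the mRNA entry of the small subunit, had 4.75 in DE replicate 1 and 11.0 in WT replicate 2 and none in the other H3K4me2 lists. Rps7 had 5.06 in DE replicate 2 and 8.10 in WT replicate 2. Rps15a had 8.08 and 7.66 in DE and 5.27 in WT replicate 2. Rpl38, which in mice is needed for translation of Hox mRNAs, had 7.09 in WT replicate 2 and 9.09 for H3K4me3. All 4 of these genes had an H3K4me3 call. The listed start of Rpl38 is 762 bp inside the bounds. In WT replicate 1 a peak with a −log10 p of 24.7 lay 489 bp from that start, outside the window for a call. The nearest DE peaks lay 6582 and 6766 bp from it. Rpl6 had a single call in the 5 lists, with a −log10 p of 4.33 in DE replicate 1, and its start lay at least 12967 bp from a peak in the other 4 lists.

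Rpl17, Rpl22 and Rps2 had no call in any of the 5 lists (4% of members, against 47.6% of all genes), and for each of them peaks lay inside the gene. Rpl22 (gene ID 19934), an RNA-binding protein needed for T cell development in mice, has a second start in the RefSeq promoter table at 152325726 of chromosome 4, 1290 bp inside the gene bounds, and peaks of all 5 lists covered it. Rps2 (gene ID 16898) has its listed start at 24720063 of chromosome 17, 1942 bp inside the bounds, and peaks of all 5 lists covered it too, with a −log10 p of 26.1 and 27.8 in DE, 19.9 and 29.6 in WT and 31.9 for H3K4me3. Rpl17 had peaks 1944 and 1921 bp from a gene end in DE, 1458 and 1446 bp in WT and 1463 bp for H3K4me3. Rpl19, called for H3K4me2 in all 4 lists and not for H3K4me3, has its listed starts 4707 and 4921 bp inside the bounds, and both were covered in all 5 lists. With the listed starts added, a choice made after the data were seen, 69 and 63 members were called in DE (background 47.9% and 43.2%), 69 and 73 in WT (51.4% and 52.4%) and 72 for H3K4me3 (22.3%).

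H3K4me2 peaks at the members sat slightly upstream of the start. RefSeq promoters, which also give the strand, were found for 55 members, and distances are from the gene bound at the start. Among the members called and with a summit within 1 kb of that bound, the median summit lay at −60 bp (n = 45) and −53 bp (n = 42) in DE, −44.5 bp (n = 46) and −58 bp (n = 50) in WT and −17 bp (n = 48) for H3K4me3. The other protein-coding genes had medians of 0 and 1 bp in DE, −4 and −6 bp in WT and 0 bp for H3K4me3. Summits downstream of the bound made up 24.4% and 19.05% of the members' summits in DE, 21.7% and 24.0% in WT and 31.3% for H3K4me3. Of the other genes' summits, 49.97% and 50.14% in DE, 48.0% and 47.1% in WT and 49.7% for H3K4me3 lay downstream. The upstream side was favoured in all 5 lists, and no test was run on this across genes. The start listed in the promoter table differs from the bound at 8 of the 55 members and at 6901 of the 17437 other genes. Measured from the listed start nearest to the bound, a choice made after the data were seen, the median summit of the members lay at −65 and −63 bp in DE, −54 and −65 bp in WT and −26 bp for H3K4me3. The other genes then had −31 and −30 bp in DE, −33 and −34 bp in WT and −24 bp for H3K4me3. The distance between the medians of members and other genes was thus smaller from the listed start for H3K4me2, and for H3K4me3 it fell to a few bases. The downstream shares still differed. Downstream of the listed start lay 18.6% and 12.5% of the members' summits in DE, 15.9% and 16.7% in WT and 21.3% for H3K4me3. For the other genes these shares were 36.2% and 37.0% in DE, 33.6% and 32.0% in WT and 35.9% for H3K4me3.

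Cover around the gene bound was highest near the start. In DE, 74.5% of the 55 members were covered by a peak at −40 bp in replicate 1 and 65.5% at −60 bp in replicate 2, where cover was highest. In WT the highest cover was 81.8% at −40 bp and 87.3% at 0 bp. For H3K4me3 it was 83.6% at −20 bp. The highest cover of the 17437 other genes was 31.7% and 26.9% in DE, 32.5% and 36.8% in WT and 14.3% for H3K4me3. Around the listed start the highest cover of the members was 76.4% and 70.9% in DE, 85.5% and 90.9% in WT and 90.9% for H3K4me3. For the other genes it was then 35.7% and 30.3% in DE, 37.3% and 41.7% in WT and 16.1% for H3K4me3.

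**Figure D4:**
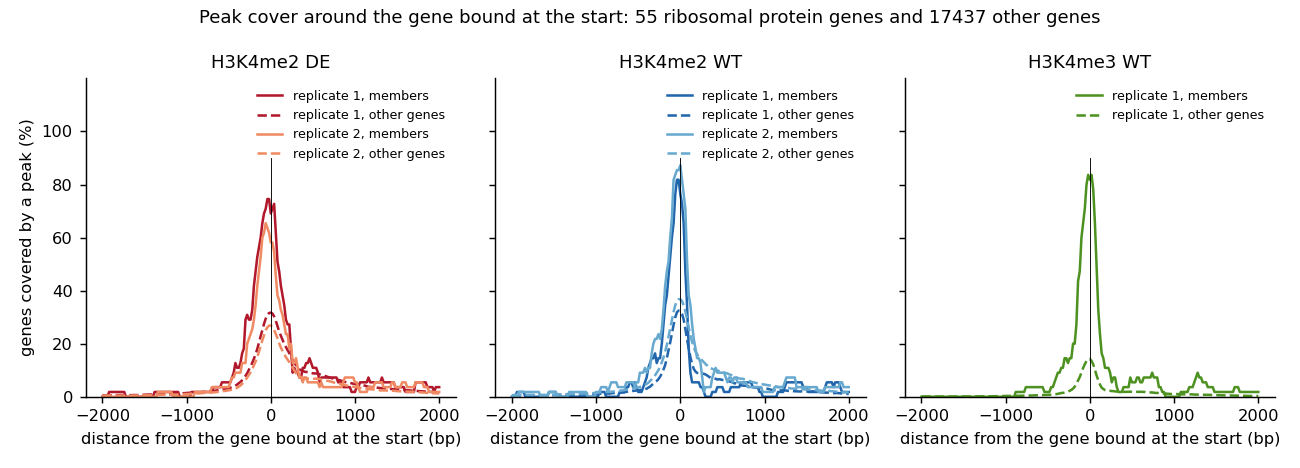
Share of genes covered by a peak (vertical axis, percent) at each distance from the gene bound at the start (horizontal axis, bp, negative upstream), for H3K4me2 in DE, H3K4me2 in WT and H3K4me3 in WT. Solid lines are the 55 members with a promoter entry and dashed lines the 17437 other genes; the members' H3K4me3 cover reaches 83.6%, that of the other genes 14.3%.

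Some promoter features that the symbol scheme did not use were more frequent at the members than at the other genes. The other genes include those without a call in any list, and the mitochondrial ribosomal and proteasome genes were not compared here. In the RefSeq windows, from 250 bases before the start to 50 after it, the median GC content was 57% at the 55 members and 56.3% at the 17437 other genes. The median ratio of observed to expected CpG was 0.877 at the members and 0.575 at the others. A C at the start followed by 4 bases each C or T, the form of a terminal oligopyrimidine motif, was found at 12 members (21.8%) and 2.10% of the others. A run of at least 6 C or T through the start was found at 17 members (30.9%) and 6.11% of the others. Of the printed promoters, Rps18 and Rpl35 have the C followed by 4 such bases, and the runs of Rpl7a and Rps24 pass through a T at the start. A start listed a few bases away from the one used in these cells would change these counts, and Rpl7a and Rpl5 have their listed starts 122 and 20 bp inside the gene bounds.

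Motifs were searched as exact letters on both strands of the same windows. CCGGAAG, a core bound by ETS factors, was found at 21 members (38.2%) and 11.8% of the others, and AAGATGG, bound by YY1, at 9 members (16.4%) and 6.32%. GGGCGG, bound by SP and KLF factors, was found at 32 members (58.2%) and 46.3% of the others. TATAAA, the TATA box, was found at 6 members (10.9%) and 13.4%. CACGTG, the E-box of MYC, was found at 5 members (9.09%) and 7.91% of the others. The E-boxes CACCTG, bound by ZEB factors such as the product of Zeb2, and CAGCTG, bound by E proteins, were found at 6 members (10.9%) and 2 members (3.64%), against 19.3% and 15.1% of the others. No motif of the list is contained in another. A match is a description of the letters and not a binding site. Rps18 has 2 CCGGAAG matches in its window, Rpl35 and Rpl26 1 each, and Rpl9, Rpl5 and Rps24 none.

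**Figure D5:**
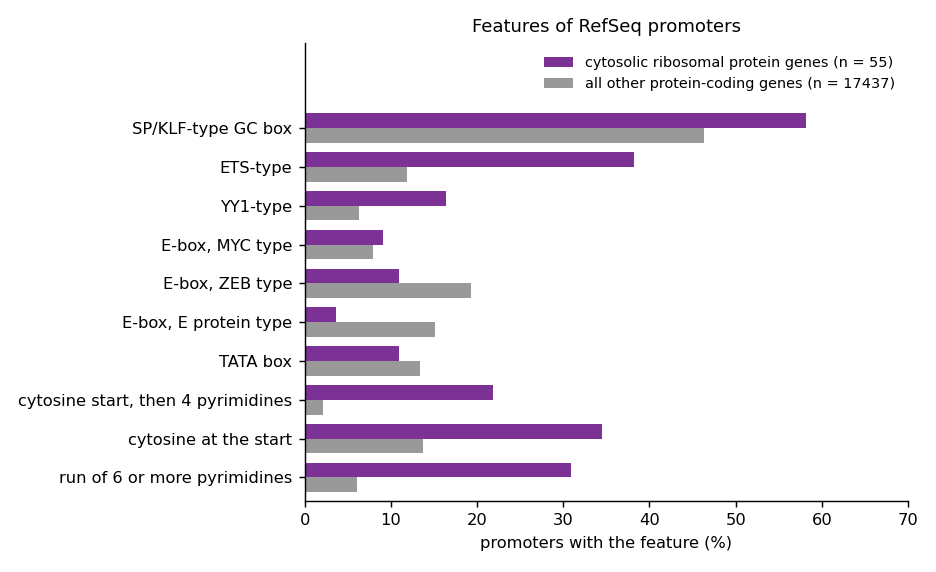
Share of RefSeq promoters (horizontal axis, percent) that hold each sequence feature (rows), for the 55 members with an entry and the 17437 other protein-coding genes. The cytosine start followed by 4 pyrimidines stands at 21.8% of members and 2.10% of the others, and the ETS-type match at 38.2% and 11.8%.

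The study's design compares enhancer variants. With 2 libraries each, the smallest p an exact test allows is 0.333, so no difference between DE and WT at the ribosomal protein genes could pass the usual threshold. Members called per list averaged 64 ± 4.24 in DE and 68.5 ± 3.54 in WT (SD, n = 2 each), a difference of −4.5 genes with p = 0.667 in an exact two-sided permutation test over the 6 assignments of the libraries. The DE range of 61 to 67 overlapped the WT range of 66 to 71. Over all protein-coding genes the share called averaged 42.5% ± 3.22 in DE and 48.6% ± 0.717 in WT, a difference of −6.10 percentage points (exact permutation p = 0.333), and for the members the difference was −6 percentage points.

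Calls that followed the genotype were rare at the members. A call in both WT and neither DE list was found at Rpl5, Rpl26 and Rps24 (4% of members, against 3.07% of all genes, 672 genes), and a call in both DE and neither WT list at 0 members, against 0.224% of all genes. As reported, both shares are near their background. Rpl5 (gene ID 100503670, chromosome 5, 107900508 to 107909005), the partner of Rpl11 in the restraint of Mdm2, had no peak nearer than 31187 bp of an end in DE and a −log10 p of 15.7 and 10.9 in WT. Rpl26 (gene ID 19941), at the peptide exit, had none nearer than 35134 bp in DE and 9.31 and 11.3 in WT. Rps24 (gene ID 20088), also mutated in human Diamond-Blackfan anaemia, had none nearer than 3499 bp in DE and 12.8 and 14.5 in WT. The WT peaks of all 3 covered or touched the printed promoter stretches, for Rps24 from 24490571 to 24490761 and from 24490583 to 24490786. The WT pattern depended on the limit set. With peaks of a −log10 q of at least 5 it held 11 members (14.7%), against 5.35% of all genes, and for peaks that touched a gene end 6 members (8%), against 3.0%. By the start alone it held 5 of 55 members (9.09%), against 3.09% of the genes with a start. In lists of equal length it held 4 members (5.33%), against 1.18%, and the DE pattern 2 (2.67%), against 1.06%. Without DE replicate 1 the WT pattern held 8 (10.7%), against 7.39%. At these settings the members' shares of the WT pattern lay further above those of all genes than as reported. The same held at 2 kb (5.33%, against 3.16%). At other settings the members' share was near or below that of all genes. It was 2.67% against 3.24% at 5 kb, and 4% against 3.14% with 50% of the interval inside the window. Without DE replicate 2 it was 4% against 4.01%, and without WT replicate 2 it was 4% against 4.57%. No test was run on these shares.

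Ranks of the members were lower in DE by a small amount. The median percentile averaged 61.4 ± 2.38 in DE and 67.6 ± 2.63 in WT (SD, n = 2 each), a difference of −6.20 (exact two-sided permutation p = 0.333, the smallest this design allows), and the DE and WT values did not overlap. Of the 58 members called in all 4 lists, 35 (60.3%) had a lower mean percentile in DE, against 50.04% of all 8239 genes. Both DE libraries lay below both WT libraries at 14 members (24.1%), against a background of 19.2%, and above them at 8 members (13.8%), against 20.5%. The median difference over the 58 members was −4.87, and −0.00303 over all genes. For the 39 members whose strongest summit lay nearest to their own end in all 4 lists, the medians were 56.6 and 59.9 in DE and 61.7 and 63.2 in WT, a difference of −4.15. By the summed width of gene-end peaks in place of −log10 p the difference was 5.07, with the opposite sign (exact permutation p = 1).

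The members with the largest differences pointed both ways. Rpl29 was at the percentile 29.2 and 74.8 in DE and 2.99 and 14.0 in WT, a difference of 43.5 between the means. Rpl13, a protein of the large subunit, was at 70.4 and 53.3 in DE and 16.1 and 31.8 in WT. Rpl4, which lines the peptide exit tunnel, was at 57.5 and 37.6 in DE and 32.5 and 22.0 in WT. At all 3 the DE libraries lay above the WT libraries. At Rpl4 these values come from different peaks. The strongest summit lay 233 and 212 bp from Zwilch and 516 and 495 bp from Rpl4 in DE, 2 bp from Rpl4 in WT replicate 1, and 212 bp from Zwilch and 495 bp from Rpl4 in WT replicate 2. A peak covered the start of Rpl4 in both WT lists, and the nearest peaks in DE lay 8 and 5 bp from it. In the other direction Rps13 was at 28.9 and 25.9 in DE and 81.4 and 63.2 in WT, a difference of −44.9, and Rpl37 at 57.8 and 10.5 in DE and 69.0 and 76.2 in WT. Rpl28 was at 16.4 and 4.55 in DE and 14.1 and 68.2 in WT, where the genotypes overlapped. These are the extremes of 58 members, and no test was run on single genes.

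The stalk genes and other well-studied members showed no common direction. Rplp0, the scaffold of the stalk, was at the percentile 13.4 and 8.79 in DE and 40.6 and 32.0 in WT, below both WT libraries in both DE libraries. Its partners differed from it, with Rplp1 at 74.0 and 82.1 in DE and 92.2 and 82.4 in WT, and Rplp2 at 56.8 and 51.5 in DE and 24.6 and 50.3 in WT. The Rplp2 values come from different summits. The strongest lay 7 bp from Rplp2 in DE replicate 1. It lay nearer to Pidd1 in DE replicate 2 (154 bp, against 240 bp from Rplp2) and in WT (305 and 298 bp, against 391 and 384 bp). Rps6, the ribosomal protein phosphorylated by S6 kinase, was at 56.6 and 74.4 in DE and 67.5 and 76.8 in WT. Rps27a, made as a fusion with ubiquitin, was at 47.3 and 71.9 in DE and 78.9 and 66.7 in WT. The genotypes overlapped at both of these. The strongest H3K4me2 summits counted for Rps27a were nearer to Clhc1 in all 4 lists, at 52 to 78 bp, against 142 to 168 bp from Rps27a. X-linked Rpl10, which joins the large subunit late in its assembly, was at 56.2 and 29.8 in DE and 71.8 and 12.3 in WT, and X-linked Rps4x at 62.5 and 2.45 in DE and 27.3 and 52.6 in WT, so replicates of 1 genotype differed by more than the genotypes. Rpl13a, which carries 4 snoRNAs, was at 59.5 and 70.2 in DE and 68.8 and 63.8 in WT, and Rpl41 at 83.5 and 88.1 in DE and 90.8 and 92.6 in WT. The values of Rpl41 belong to the peak beyond its far end. Its summits lay 142 and 153 bp from Zc3h10 in DE and 132 and 170 bp in WT, nearer than to Rpl41. A peak covered the start of Rpl41 in both WT lists, while the nearest DE peak lay 1141 bp from it in each list.

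Peak widths at the members followed the whole list. The median width was 362.5 and 315.5 bp in DE and 243.5 and 343.5 bp in WT, a difference of 45.5 bp between the means (exact permutation p = 0.667). Over all genes called in all 4 lists the medians were 363 and 314 bp in DE and 240 and 345 bp in WT, a difference of 46 bp. The shortest interval also differed between the lists, at 109 bp in both DE lists and 74 and 91 bp in WT, and its part in these widths and calls was not tested.

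Ribosomal protein genes have many processed copies in the genome, which can share reads with them. Of the 304 pseudogenes whose symbols follow the same scheme, 0 had a peak within 1 kb in either DE list, 2 and 1 in WT and 0 for H3K4me3. Of the 10125 other pseudogenes, 1.90% and 1.48% had one in DE, 2.74% and 2.52% in WT and 0.454% for H3K4me3. The sources used here do not say how reads that match several places were treated, so the members' values may lack such reads.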

How the data were processed

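Per the labels' protocols, CUTAC libraries of cMoPs used a CUT&Tag kit and tagmentation without salt. MACS2 2.2.9.1, Bowtie2, Picard, SAMtools, Trimmomatic and mm10 are named in the submitters' processing notes, and the sources used here do not give their settings. The 5 deposited lists, 1 per library and not pooled, hold for each summit a score, the caller's fold over local background (a linear ratio), the −log10 of p and q, and the summit's offset. All of these values are the authors', and they served only to describe, rank or filter peaks of the same list. No list held a −log10 q under 1.00. The track line of the DE replicate 1 list names DE replicate 2, and GEO's own record set its sample.

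Entries with the same interval were counted as 1 peak, by the strongest p. Genes came from the RefSeq table of GRCm38.p6, which gives bounds without strand, so either end was used. Promoters came from the RefSeq promoter table, which gave entries for 55 members. Those without an entry include Rpl3, Rpl7, Rpl8, Rpl17, Rpl21, Rpl23a, Rpl29, Rpl30, Rpl32, Rpl36, Rplp1, Rps14, Rps20, Rps27a and Rps29. A gene's value is the percentile of its strongest gene-end peak by −log10 p. DE and WT, all of batch 2, were compared per library with an exact two-sided permutation test (6 assignments). Counting was tested on simulated peaks. Python 3.11.15, numpy 2.4.6, pandas 2.3.3 and matplotlib 3.10.9 were used.

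Members, lists and tests were chosen with earlier results of these data known. Genes named with values are those missing from an H3K4me2 list, the 5 highest and 5 lowest for each mark, the 3 largest and 3 smallest differences between DE and WT, and 12 well-studied members; others are named where a count needs them. Alternatives tried were other distances, a −log10 q of at least 5, the start alone, lists of equal length, 50% of the interval inside the window, 5 added genes, strength by fold or summed width, leaving out each replicate, and the replicate block.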

Additional observations from a re-analysis of the deposited data

How the results depend on the processing

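The count of members called in both WT and neither DE was 3 as reported. It was 11 (14.7%, against 5.35% of all genes) with a −log10 q of at least 5, and 6 (8%, against 3.0%) for peaks touching a gene end (0 bp). For the start alone it was 5 of 55 (9.09%, against 3.09%), and at 5 kb it was 2 (2.67%, against 3.24%). When 1 library was left out it was 3 to 8. The 8 (10.7%, against 7.39%) came without DE replicate 1, and without WT replicate 2 it was 3 (4%, against 4.57%). The opposite pattern, 0 as reported, held 2 members, Rpl37a and Rps15a, in lists of equal length (2.67%, against 1.06%), and 0 to 2 when 1 library was left out, with Rpl6 alone without DE replicate 2 (1.33%, against 0.978%) and with Rps14 and Rps15a without WT replicate 2 (2.67%, against 0.845%). The difference in median percentile, −6.20 as reported, was 5.07 by summed width, and −8.02 to −4.16 when 1 library was left out. The difference in median width, 45.5 bp as reported, was −5.5 to 95.5 bp when 1 library was left out, and −5.5 bp without WT replicate 1. The difference in members called was −7.5 to −1.5 when 1 library was left out, −16 with a −log10 q of at least 5 and −10.5 at 0 bp. The cause of these changes was not tested. Of 47 members named by rule, 23 lost H3K4me2 calls at the q limit and 17 at 0 bp. These 47 were picked in part for missing calls or low percentiles. Their counts therefore do not stand for all members and are not set against all genes. From the start of the promoter table the median summit lay at −65 and −63 bp in DE, −54 and −65 bp in WT and −26 bp for H3K4me3. This start, its use in calling and the restriction to members nearest to their own peak were chosen after the data were seen.

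Replicate numbers are shared by DE and WT, but same-numbered libraries did not deviate together (correlation −0.0180 over 8239 genes). With the number as a replicate block the differences were −4.5 members (exact paired permutation p = 1), −6.20 in median percentile (p = 0.5) and 45.5 bp in width (p = 1), where 0.5 is the smallest p possible. The lists give no depth, so weak peaks are the least certain calls.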

Other observations

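The H3K4me2 and H3K4me3 peaks at Rpl32 shared 1 edge. All 4 lists with a peak there began it at position 115808719 of chromosome 6, and it ended at 115808833 in DE replicate 1, at 115808837 and 115808821 in WT replicates 1 and 2 and at 115808835 for H3K4me3. At Rps2 the peak over the start inside the gene began at position 24719829 of chromosome 17 in both DE lists and in WT replicate 2, at 24719843 in WT replicate 1 and at 24719830 for H3K4me3. Shared edges were not particular to these 2 genes. The strongest peaks of Rps27a ended at position 29547965 of chromosome 11 in all 5 lists. Equal or near edges in libraries of different genotype and mark are given here as values only.

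H3K4me3 at the percentile 75 or above, with every H3K4me2 list below the percentile 50 or without a call, was found at Psmb10, an inducible catalytic subunit of the proteasome, as 1 of 31 proteasome genes with H3K4me3, and at 0 of 44 mitochondrial ribosomal protein genes. The reverse pattern was found at Mrpl14 and Mrpl34 among the mitochondrial genes and at 0 proteasome genes. All 3 were named after their values were seen.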
